A study of Mus musculus with 12 samples.

Results

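The 49 genes described here encode proteins that copy chromosomal DNA in S phase, or that switch on this copying. They were chosen by symbol, for their function, with earlier results of these data known. Shares of the listed genes set beside those of all genes are therefore descriptive. They cover origin licensing, helicase activation, the sliding clamp and its loader, the polymerases and primase, strand binding and Okazaki fragment maturation, nucleotide supply, the E2F and cyclin E factors, and chromatin assembly behind the fork. All 49 were among the 32544 rows of the count table, and all 49 were among the 14279 genes that passed the filter on low counts. RNA was sequenced from 3T3 cells, an established mouse fibroblast line, in 4 groups of 3 libraries. Cells of the first group received no treatment, and those of each other group had been exposed for 24 h to extracellular vesicles (EVs), the membrane-bound particles that cells shed. The donor of the vesicles was MDA-MB-468, an established line of human breast cancer. It was used as a control line (shCon), with its CRIPTO knocked down (shCr) or with CRIPTO overexpressed (CrOE). CRIPTO is a membrane-anchored co-receptor for Nodal and related ligands, and it was altered in the donor cells, not in the fibroblasts. Its level in the donor cells or their vesicles was not analysed here.

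The labels give no vesicle dose and no vehicle control, and they do not say whether each donor line was a clone or a pool. They also do not say whether the libraries of a group came from separate cultures, so p-values measure only the spread between these libraries, which may be technical. The columns of the CrOE group carry the protein's name alone and were matched by elimination, and every statement on that group rests on this match.

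Before a cell divides, the origin recognition complex, CDC6 and CDT1 load the ring-shaped MCM helicase onto DNA, a step called licensing. In S phase, CDC45 and GINS join the ring and open the strands, primase and polymerase alpha lay down primers, and the PCNA clamp tethers the polymerases that extend them. Many of these genes are switched on at the entry into S phase by E2F factors once these are released from the RB protein, while genes of mitosis are switched on later through other promoter elements. In 3T3 cells, growth arrest by contact or by lack of serum and the return to S phase have been studied widely.

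The libraries held 25959912 to 37773847 estimated counts. Across all genes tested, CrOE EV libraries correlated with libraries of the other groups at 0.90 to 0.92 (Pearson's r of log2 levels, across genes, which are not independent replicates), and libraries within a group at 0.99. The CrOE group therefore stands apart across the whole transcriptome, and 73.7% of all genes tested differed between it and untreated cells. Most fibroblast markers were present in every group. The summed level of the 9 markers was 15225 to 16212 CPM (the count of a gene scaled to a fixed library total) in untreated libraries, 17312 to 17484 with shCon EVs, 11857 to 13534 with shCr EVs and 4763 to 4951.5 with CrOE EVs. After CrOE EVs 8 of the 9 markers had a mean above 1 CPM, and in each other group all 9 did. All 9 fell after CrOE EVs, by a median log2 fold change of -2.18 and at the deepest -8.10. Their part in the results below was not tested. The 5 leukocyte markers, with Cd14 making up most of the sum, came to 77.0 to 87.8 CPM in untreated libraries, 46.5 to 48.7 with shCon EVs, 50.2 to 57.7 with shCr EVs and 29.5 to 36.3 with CrOE EVs, and their part was not tested either. The 4 endothelial markers summed to at most 1.51 CPM and the 6 epithelial ones to at most 2.12 in any library, and Epcam was listed at 0 in every group. The counts are listed under mouse genes, and whether RNA of the human donor line added to them was not tested.

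Replication genes were lower after shCon EVs and after shCr EVs than in untreated cells, with hardly an exception. Of the 49 genes, 47 were called lower and 0 higher after shCon EVs, where a call is an adjusted p under 0.05 in the quasi-likelihood test of edgeR, adjusted by Benjamini-Hochberg over all genes. Over all genes tested, 38.1% were called in this comparison, 20.2% lower and 18.0% higher. After shCr EVs 44 of the 49 were called lower and 0 higher, against 37.3% of all genes called, 18.8% lower and 18.4% higher. The median log2 fold change of the 49 genes was -0.90 after shCon EVs and -0.9999 after shCr EVs, where the medians of all genes were 0.0069 and 0.020. Both comparisons use the same untreated libraries. At least 2-fold falls were called in 21 and 24 of the 49 genes, against 3.54% and 3.53% of all genes, and 2-fold rises in 0 and 0 (2.51% and 2.75% of all genes). In bulk RNA, fewer cells in S phase and less of these RNAs per cell cannot be told apart.

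After CrOE EVs calls went both ways among the 49 genes, as they did over all genes. Of the 49 genes, 14 were called higher than in untreated cells, 24 lower, and 11 were not called. Over all genes, 73.7% were called in this comparison, 36.7% higher and 37.0% lower, so a call of either kind was common here. The 49 genes had a median log2 fold change of -0.22, and that of all genes was 0.0078. Rises and falls of at least 2-fold were called in 3 genes each, with 11.0% and 18.7% of all genes. Taken over all comparisons with untreated cells, 12 of the 49 were lower after shCon and after shCr EVs and higher after CrOE EVs. A further 21 were lower after each kind of EV, and 10 were lower after shCon and shCr EVs with no call after CrOE EVs. The shares of all genes with these combined patterns were not counted, so the patterns are a description of the 49 genes only.

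**Figure D1:**
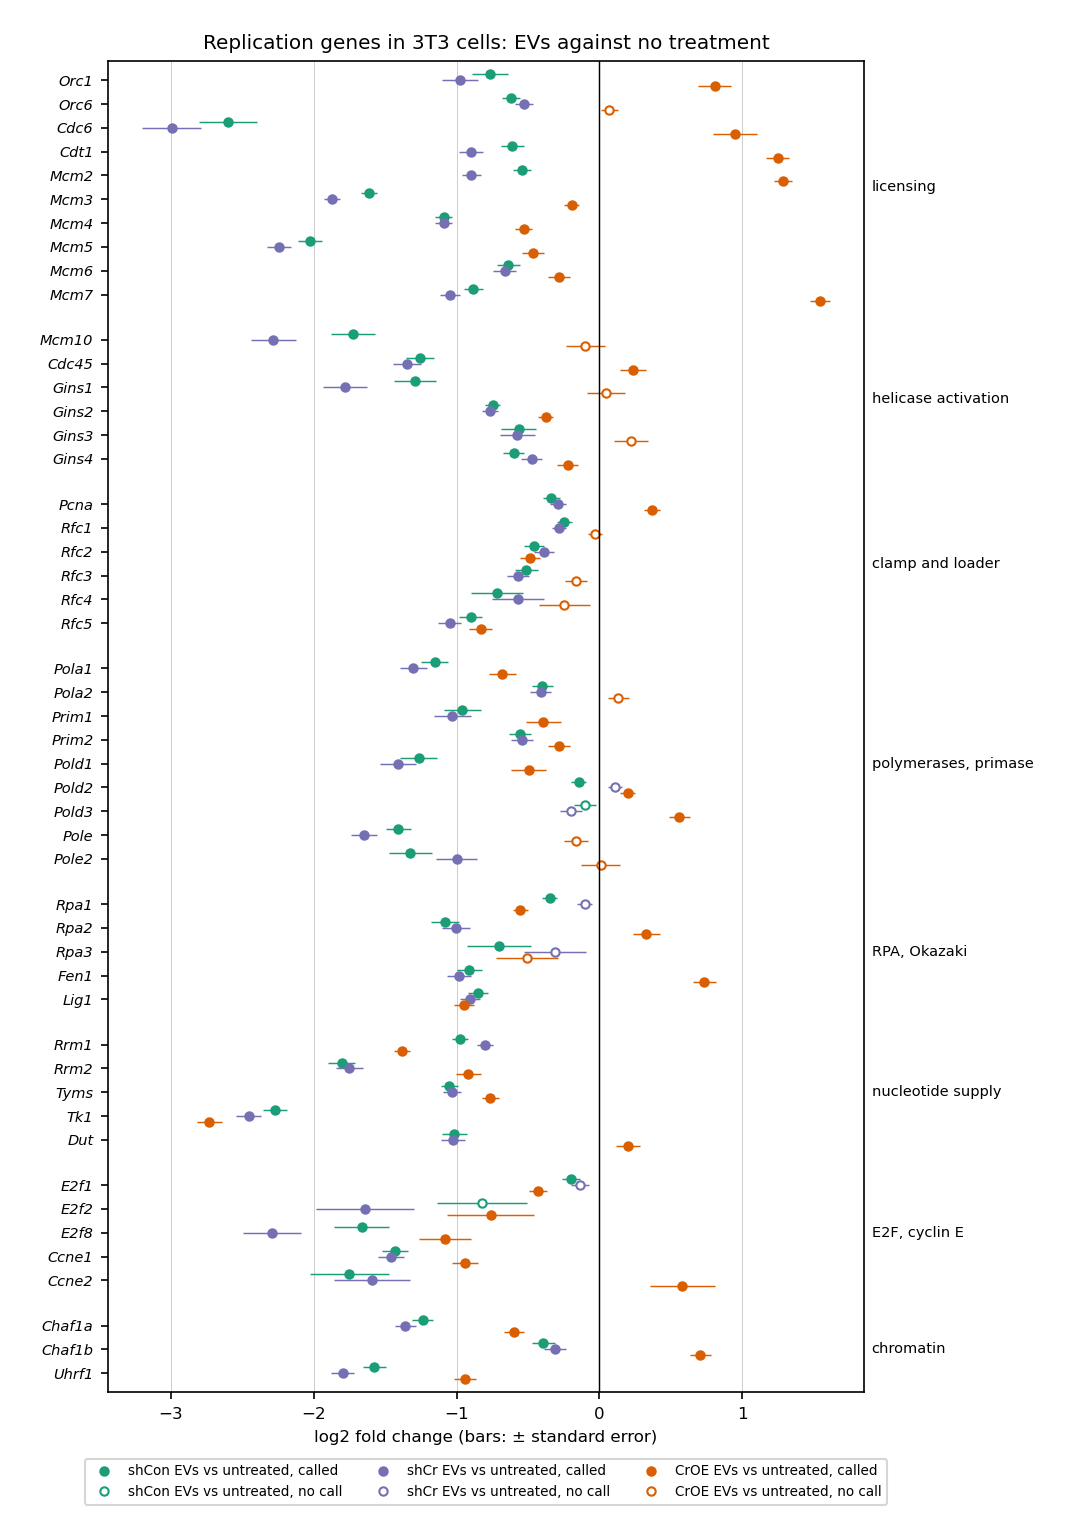
The log2 fold change of each of the 49 replication genes after each kind of EV against untreated cells (x axis), by gene and role (y axis), with the standard error as a bar; filled points passed an adjusted p of 0.05. The shCon and shCr points lie left of 0 for all genes but Pold2 after shCr EVs, while the CrOE points run from -2.73 for Tk1 to 1.54 for Mcm7.

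The summed level of the 49 genes came to 1603 ± 39.2 CPM (SD, n = 3) without EVs, 934 ± 20.9 with shCon EVs, 938 ± 9.06 with shCr EVs and 1576 ± 26.1 with CrOE EVs. CrOE EV cells thus had a total close to that of untreated cells, made up differently. The 10 licensing genes summed to 466 ± 15.8 CPM without EVs and 669.97 ± 10.1 with CrOE EVs, while the 5 genes of nucleotide supply summed to 236 ± 12.6 and 110.3 ± 2.17 CPM.

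Licensing genes included the deepest falls after shCon and shCr EVs and the largest rise after CrOE EVs. All 10 were called lower after shCon EVs and after shCr EVs, with medians of -0.82 and -1.01 on the log2 scale. After CrOE EVs Orc1, Cdc6, Cdt1, Mcm2 and Mcm7 were higher than in untreated cells, Mcm3, Mcm4, Mcm5 and Mcm6 were lower, and Orc6 was not called (log2 fold change 0.07, adjusted p = 0.325).

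Mcm7, a subunit of the MCM ring and the licensing gene with the highest mean CPM, had 62.2, 66.2 and 67.4 CPM without EVs, 31.8, 37.0 and 37.5 with shCon EVs, 29.2, 32.6 and 33.0 with shCr EVs and 189, 191 and 191 with CrOE EVs. The 4 groups split into 3 tiers: the CrOE libraries lay highest, the untreated ones between, and the shCon and shCr libraries overlapped at the bottom. Against untreated cells Mcm7 fell by 1.84 times after shCon EVs (log2 fold change -0.88 ± 0.0693, SE; adjusted p = 8.11e-07) and rose by 2.92 times after CrOE EVs (1.54 ± 0.0681, adjusted p = 3.11e-10). This was the largest rise among the 49 genes in that comparison. GENCODE M21 places 26.8% of the 31-base stretches of Mcm7 transcripts also in other genes, so part of the Mcm7 count is uncertain in origin. The gene that shares the most of them is the pseudogene Gm5487, which is not a row of the table.

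Mcm2, another subunit of the ring, had 60.3, 68.6 and 63.8 CPM without EVs, 44.4, 43.7 and 44.2 with shCon EVs, 32.6, 34.4 and 36.5 with shCr EVs and 148, 165 and 158 with CrOE EVs. It is the one licensing gene besides Mcm3 in which shCr libraries were called below shCon libraries, and no libraries of different groups overlapped. The log2 fold change was -0.54 ± 0.0638 with shCon EVs, -0.90 ± 0.0643 with shCr EVs and 1.29 ± 0.0630 with CrOE EVs (adjusted p = 2.79e-05, 3.44e-07 and 8.47e-10).

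Cdc6, the loader that brings the MCM ring to the origin recognition complex, had 4.36, 4.80 and 5.11 CPM without EVs, 1.07, 0.631 and 0.648 with shCon EVs, 0.388, 0.737 and 0.636 with shCr EVs and 9.80, 9.08 and 8.73 with CrOE EVs. These are low levels, with 11 to 30 counts per library after shCon and shCr EVs and 309 to 312 after CrOE EVs. Libraries of the shCon and shCr groups overlapped and lay far below the untreated ones, while each CrOE library lay above every other library. Cdc6 had the largest fall of the 49 genes after shCon EVs and after shCr EVs, by 6.06 and 7.96 times (log2 fold changes -2.60 ± 0.201 and -2.99 ± 0.206, adjusted p = 7.09e-07 and 2.43e-07). After CrOE EVs it rose by 1.93 times (0.95 ± 0.154, adjusted p = 9.66e-05).

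Cdt1, the partner of CDC6 in loading the ring, had 24.8, 27.3 and 27.3 CPM without EVs, 16.2, 17.1 and 18.8 with shCon EVs, 13.0, 15.9 and 13.6 with shCr EVs and 62.9, 62.0 and 63.5 with CrOE EVs. No libraries of different groups overlapped. It fell by 1.53 times after shCon EVs and 1.86 times after shCr EVs, and rose by 2.37 times after CrOE EVs (log2 fold changes -0.61 ± 0.0812, -0.90 ± 0.0817 and 1.25 ± 0.0780; adjusted p = 7.87e-05, 2.81e-06 and 9.75e-09). Orc1, the largest subunit of the origin recognition complex, had 4.80, 5.83 and 4.38 CPM without EVs, 3.22, 2.62 and 2.99 with shCon EVs, 2.47, 2.60 and 2.54 with shCr EVs and 9.39, 8.38 and 8.51 with CrOE EVs. Again each CrOE library lay above every other library, and the shCon and shCr libraries lay below the untreated ones. Its log2 fold change was -0.76 ± 0.127 with shCon EVs, -0.98 ± 0.127 with shCr EVs and 0.81 ± 0.115 with CrOE EVs (adjusted p = 0.000436, 5.89e-05 and 3.14e-05).

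Mcm3, Mcm4, Mcm5 and Mcm6, the other subunits of the ring, were lower after each kind of EV. Mcm5 stood at 50.1 ± 2.5015 CPM (SD, n = 3) without EVs, 12.3 ± 1.49 with shCon EVs, 10.6 ± 0.0706 with shCr EVs and 36.4 ± 2.01 with CrOE EVs. Its log2 fold changes of -2.03 and -2.25 after shCon and shCr EVs were deeper than those of any other subunit of the ring, and that after CrOE EVs was -0.46 (adjusted p = 0.000125). Mcm3 fell by 3.06, 3.65 and 1.14 times after shCon, shCr and CrOE EVs. Mcm4 had log2 fold changes of -1.09, -1.09 and -0.53, and Mcm6 of -0.64, -0.66 and -0.28. Orc6, a small subunit of the origin recognition complex, had -0.62 and -0.53 after shCon and shCr EVs.

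**Figure D2:**
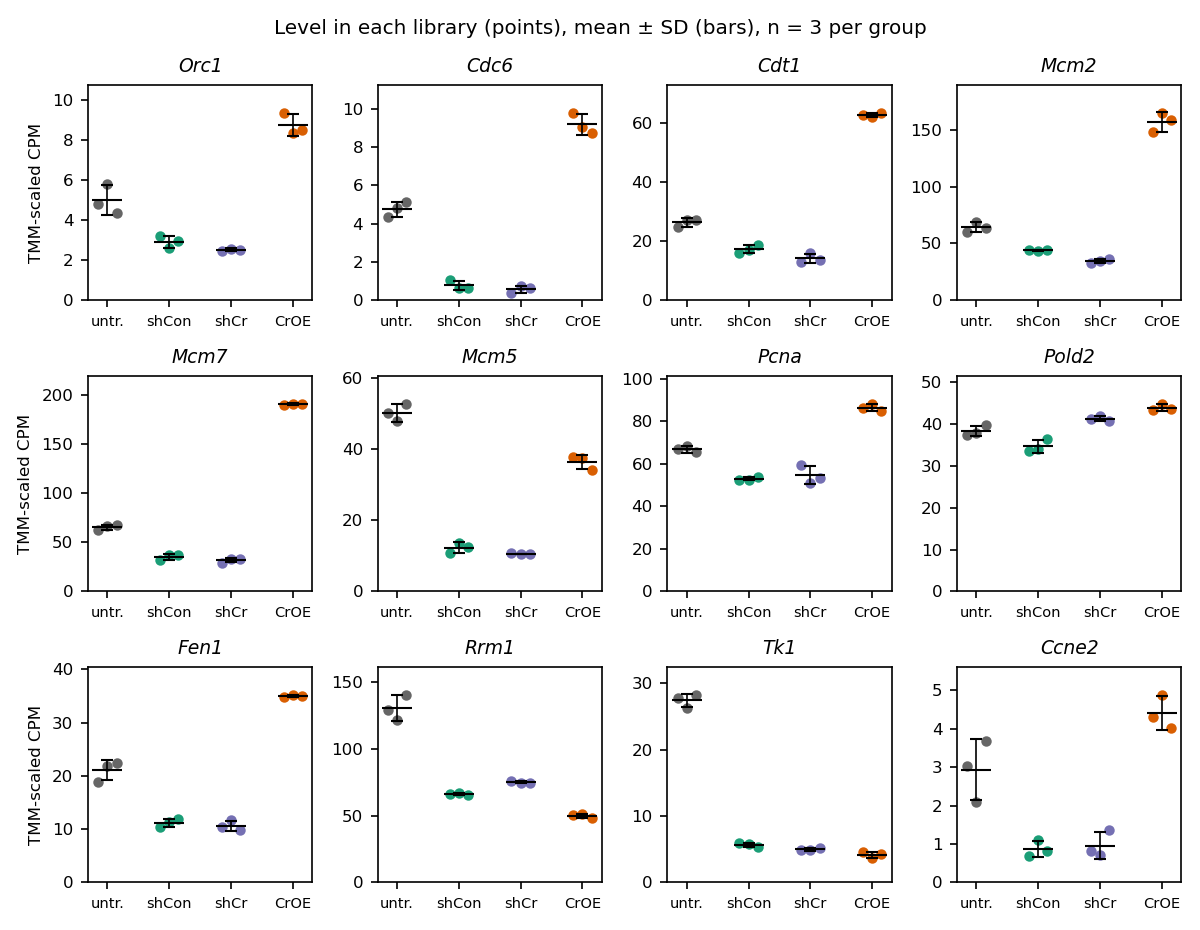
TMM-scaled CPM (y axis, from 0) of 12 replication genes in each library (points) of the 4 groups (x axis), with the mean and SD of 3 libraries as lines. Orc1, Cdc6, Cdt1, Mcm2, Mcm7, Pcna, Pold2, Fen1 and Ccne2 are highest after CrOE EVs, whereas Rrm1 and Tk1 are lowest there.

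The subunits of the MCM ring, which assembles with a single copy of each of its 6 members, were set side by side per kilobase of transcript. The length was that of the longest transcript ranked as principal by APPRIS, an annotation of main isoforms. For Mcm2 it was 3371 bases, while all annotated exons together cover 6956, so the order of subunits within a group depends on the length used. In untreated cells the means ran from 14.8 CPM per kb for Mcm5 to 25.4 for Mcm6, so the highest was 1.71 times the lowest. This ratio was 4.49 after shCon EVs and 5.13 after shCr EVs, with Mcm6 highest and Mcm5 lowest in both. After CrOE EVs it was 5.97, from 10.7 CPM per kb for Mcm5 to 64.2 for Mcm7.

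Among all 49 genes Mcm7 ranked 8th per kb in untreated cells and 1st after CrOE EVs, and Mcm2 went from 11th to 3rd. Pcna ranked 1st in the other 3 groups. The ratio of Mcm7 to Mcm5 per kb, a pair chosen after their values were seen, was 1.42 to 1.58 in untreated libraries, 3.09 to 3.41 with shCon EVs, 3.13 to 3.57 with shCr EVs and 5.75 to 6.398 with CrOE EVs. The shCon and shCr libraries overlapped in this ratio, and the untreated and CrOE libraries each lay apart. Ranks per kb rest on the same transcript lengths, and part of the Mcm7 count is uncertain in origin, as given above. These are levels of RNA and say nothing of the protein ring.

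**Figure D3:**
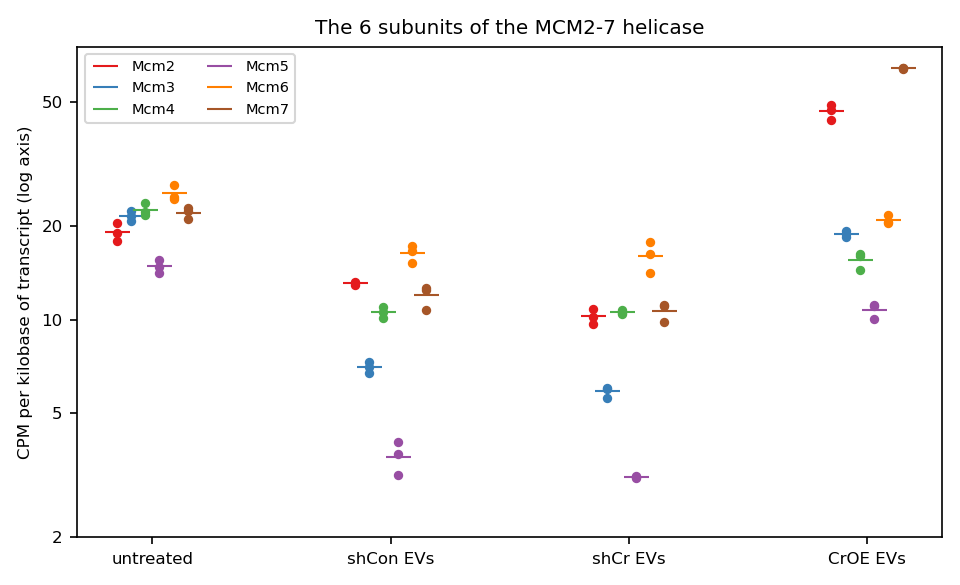
Level of each MCM ring subunit in CPM per kilobase of transcript (log y axis) in each library (points), with the group mean as a line, by group (x axis). The subunits lie within 1.71 times of each other in untreated cells and within 5.97 times after CrOE EVs, where Mcm7 and Mcm2 are above the rest and Mcm5 is below.

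The promoters of the licensing genes were read for the letters that E2F factors are known to prefer. RefSeq windows on build GRCm38.p6, from 250 bases before to 50 bases after a gene start, were found for 41 of the 49 genes. The letters searched were TTTCCCGC, TTTGGCGC, TTTCGCGC and TTTGCCGC on both strands, and matches may overlap each other. At least 1 match was present for 7 of the 9 licensing genes with a window, for 16 of all 41 genes (39.0%) and for 704 of the 27025 genes with a window of this length (2.60%). The stretches of 30 bases around matches of licensing genes are printed 5′ to 3′ on the strand of the gene, because these genes share the letters yet went different ways after CrOE EVs. Capitals mark the searched letters, on either strand.
Orc1, chr4:108579416-108579445, plus strand: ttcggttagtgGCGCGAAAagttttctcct
Cdc6, chr11:98908002-98908031, plus strand: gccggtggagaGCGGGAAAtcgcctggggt
Cdt1, chr8:122568035-122568064, plus strand: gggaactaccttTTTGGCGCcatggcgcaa
Mcm3, chr1:20820266-20820295, minus strand: tgGCGGGAAAacttgggaagtTTTGGCGCc
Mcm5, chr8:75109347-75109376, plus strand: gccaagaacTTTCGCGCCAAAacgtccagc
Mcm6, chr1:128359795-128359824, minus strand: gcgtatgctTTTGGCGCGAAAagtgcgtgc
Mcm6, chr1:128359734-128359763, minus strand: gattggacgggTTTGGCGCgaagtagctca
Mcm7, chr5:138172030-138172059, minus strand: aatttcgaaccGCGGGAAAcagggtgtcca
Mcm7, chr5:138171849-138171878, minus strand: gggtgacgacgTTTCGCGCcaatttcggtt

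In Mcm5 and Mcm6 the first match is a pair of overlapping matches on opposite strands. Against untreated cells, CrOE EVs left Orc1, Cdc6, Cdt1 and Mcm7 higher and Mcm3, Mcm5 and Mcm6 lower. Over the members with a window, the letters were found in 5 of 13 genes called higher after CrOE EVs (38.5%), 8 of 19 called lower (42.1%) and 3 of 9 not called (33.3%). These shares rest on few genes each and were not tested against each other. A match is a description of letters, not a binding site or a cause.

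The CHR letters of cell-cycle promoters of the later phases, searched as TTTGAA and TTCGAA on both strands, were found in 9 of 41 replication genes (22.0%), a share near that of all genes (21.7%). By call after CrOE EVs, they were found in 5 of 13 genes called higher (38.5%), 2 of 19 called lower (10.5%) and 2 of 9 not called (22.2%), a split seen among these few genes and not tested. In the 18 genes of a mitosis list with a window they were found in 14 (77.8%), and the E2F letters in 1 (5.56%). The CCAAT box, searched on both strands, was found in 25 of 41 replication genes (61.0%), in 15 of 18 mitosis genes (83.3%) and in 41.1% of all genes.

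Genes of helicase activation fell after shCon and shCr EVs and lay closer to the untreated level after CrOE EVs, at log2 fold changes of -0.37 to 0.24. All 6 were called lower after shCon EVs and after shCr EVs. After CrOE EVs Cdc45 was called higher, Gins2 and Gins4 lower, and Mcm10, Gins1 and Gins3 were not called, with log2 fold changes of -0.10, 0.05 and 0.22. Gins4, a subunit of the GINS complex and the member of this role with the highest mean CPM, had 46.1, 46.9 and 48.5 CPM without EVs, 30.4, 31.7 and 31.1 with shCon EVs, 38.5, 32.8 and 30.7 with shCr EVs and 39.6, 41.4 and 40.2 with CrOE EVs. Its untreated libraries lay above all others and the CrOE libraries came next, while shCon and shCr libraries overlapped. Its log2 fold change was -0.60 ± 0.0729, -0.47 ± 0.0723 and -0.22 ± 0.0718 after shCon, shCr and CrOE EVs (adjusted p = 3.67e-05, 0.000215 and 0.0134).

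Cdc45, which joins MCM and GINS into the active helicase, had 10.032, 10.9 and 11.6 CPM without EVs, 4.15, 5.08 and 4.36 with shCon EVs, 4.30, 4.29 and 4.19 with shCr EVs and 13.8, 12.7 and 11.9 with CrOE EVs. The CrOE libraries lay just above the untreated ones and the shCon and shCr libraries at well under the untreated level. Its falls were -1.26 ± 0.0990 and -1.35 ± 0.0985 on the log2 scale (adjusted p = 8.24e-07 and 3.99e-07). The rise after CrOE EVs was small (0.24 ± 0.0908, adjusted p = 0.0306) and lost its call in 7 of 19 alternative settings, among them DESeq2 (adjusted p = 0.0596) and the fits without untreated replicates 1 or 2 or CrOE EV replicates 1 or 2 (adjusted p 0.0534 to 0.127). Mcm10, a scaffold that helps to start the helicase, and Gins1 had the deepest falls of this role after shCr EVs, -2.28 and -1.78, beside -1.72 and -1.29 after shCon EVs. Gins2 had -0.75 and -0.77, and Gins3 -0.56 and -0.57, after shCon and shCr EVs. Gins2 has 67.3% of its exon bases under exons of Gse1 on the other strand. Gse1 itself had log2 fold changes of 0.09, -0.18 and -0.72 after shCon, shCr and CrOE EVs. Since the sources used here do not say whether strand was used in counting, the reads of such pairs cannot be told apart. In all, 13 of the 49 genes have at least 5% of their exon bases under such exons. Among them are Orc6 (6.9%, Vps35), Mcm7 (8.7%, Ap4m1 and Cops6), Rfc4 (12.7%, Eif4a2) and Rfc5 (10.7%, Wsb2). In untreated cells Vps35, Eif4a2 and Wsb2 had means of 468, 165 and 133 CPM, against 30.6, 8.78 and 19.1 for Orc6, Rfc4 and Rfc5.

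The clamp and its loader had the smallest median falls of the 8 roles after shCon and shCr EVs. All 6 genes were called lower in both comparisons, with medians of -0.49 and -0.48. Pcna, the ring that holds polymerases on DNA, had 66.8, 68.5 and 65.3 CPM without EVs, 52.6, 52.5 and 54.0 with shCon EVs, 59.6, 51.1 and 53.4 with shCr EVs and 86.0, 88.2 and 84.7 with CrOE EVs. Every CrOE library was above every untreated one, and shCon and shCr libraries overlapped below them. Pcna fell by 1.26 times after shCon EVs and 1.22 times after shCr EVs and rose by 1.29 times after CrOE EVs (log2 fold changes -0.34 ± 0.0574, -0.29 ± 0.0572 and 0.37 ± 0.0567; adjusted p = 0.000564, 0.00147 and 6.26e-05). Of the 31-base stretches of Pcna, 23.3% also occur in other genes, and the pseudogene Pcna-ps2 shares the most of them. Pcna-ps2 had means of 8.51, 6.55, 7.70 and 12.1 CPM in untreated, shCon, shCr and CrOE libraries.

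Rfc1, the large subunit of the clamp loader and the member of this role with the highest mean CPM, had 84.1, 78.4 and 83.0 CPM without EVs, 67.1, 69.5 and 70.6 with shCon EVs, 70.2, 65.7 and 66.2 with shCr EVs and 79.0, 83.1 and 78.5 with CrOE EVs. CrOE and untreated libraries overlapped. Its falls after shCon and shCr EVs were -0.25 ± 0.0504 and -0.28 ± 0.0503 (adjusted p = 0.00208 and 0.000727), and CrOE EVs gave -0.03 with no call. The small subunits Rfc2, Rfc3, Rfc4 and Rfc5 had -0.46, -0.51, -0.72 and -0.90 after shCon EVs and -0.39, -0.57, -0.57 and -1.05 after shCr EVs. Among them, Rfc2 and Rfc5 were lower after CrOE EVs (-0.49 and -0.83), and Rfc3 and Rfc4 were not called (-0.16 and -0.25). In the call of Rfc4 after shCr EVs, libraries of the compared groups overlapped. They had 8.18, 4.65 and 5.06 CPM with shCr EVs and 10.032, 7.93 and 8.39 without EVs (adjusted p = 0.0259). That call was lost in 4 of 19 settings, among them the fits without untreated replicate 1 or shCr EV replicates 2 or 3 (adjusted p 0.0970 to 0.103).

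Polymerase and primase genes fell by unequal amounts. After shCon EVs 8 of 9 were called lower and after shCr EVs 7 of 9. Pole, the catalytic subunit of the leading-strand polymerase, had log2 fold changes of -1.41 ± 0.0887 and -1.65 ± 0.0892, Pold1, that of the lagging-strand polymerase, -1.27 ± 0.127 and -1.41 ± 0.127, and Pola1, that of the priming polymerase, -1.15 ± 0.0963 and -1.30 ± 0.0964. After CrOE EVs Pole was not called (-0.16, adjusted p = 0.0946) and Pold1 and Pola1 were lower (-0.50 and -0.68). The primase subunits were lower after every kind of EV: Prim1, the catalytic one, had -0.96, -1.03 and -0.39, and Prim2 had -0.56, -0.54 and -0.28. The CrOE call of Prim1 was lost without CrOE EV replicate 2 (adjusted p = 0.0574). The accessory subunits Pola2 (-0.40 and -0.41) and Pole2 (-1.32 and -0.9999) were lower after shCon and shCr EVs and were not called after CrOE EVs (0.13 and 0.01).

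The accessory subunits of polymerase delta went their own way. Pold2, the member of this role with the highest mean CPM, had 37.4, 37.8 and 39.6 CPM without EVs, 33.6, 33.9 and 36.4 with shCon EVs, 41.1, 41.9 and 40.7 with shCr EVs and 43.4, 44.8 and 43.5 with CrOE EVs. The 12 libraries spanned a narrow range, with shCon libraries lowest, then untreated, shCr and CrOE libraries, and no overlap between groups. Pold2 was called lower after shCon EVs (-0.14 ± 0.0511, adjusted p = 0.0413), was not called after shCr EVs (0.11 ± 0.0506, adjusted p = 0.117) and was higher after CrOE EVs (0.20 ± 0.0505, adjusted p = 0.00329). The first of these calls was lost in 9 of 19 settings, among them the fits without untreated replicates 1, 2 or 3, shCon EV replicates 1 or 2 or CrOE EV replicates 1, 2 or 3 (adjusted p 0.05004 to 0.143). Pold3 had 12.6, 13.2 and 11.0 CPM without EVs, 11.7, 11.3 and 11.3 with shCon EVs, 11.0, 11.0 and 10.1 with shCr EVs and 17.8, 18.0 and 18.3 with CrOE EVs. Untreated, shCon and shCr libraries overlapped, and CrOE libraries lay above all of them. The rise after CrOE EVs was 1.47 times (0.56 ± 0.0751, adjusted p = 1.77e-05), with -0.10 ± 0.0773 after shCon and -0.20 ± 0.0771 after shCr EVs (adjusted p = 0.341 and 0.0649, no call).

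Single-strand binding genes did not move together. RPA is a complex of the products of Rpa1, Rpa2 and Rpa3 that coats unwound DNA. Rpa1, its large subunit, had 103, 102 and 106 CPM without EVs, 76.7, 83.2 and 84.6 with shCon EVs, 98.5, 96.4 and 94.9 with shCr EVs and 71.1, 73.8 and 67.1 with CrOE EVs. CrOE libraries lay lowest, then shCon, shCr and untreated libraries, without overlap. Rpa1 was lower after shCon EVs (-0.35 ± 0.0530, adjusted p = 0.000238) and CrOE EVs (-0.55 ± 0.0531, adjusted p = 7.19e-07) and was not called after shCr EVs (-0.10 ± 0.0528, adjusted p = 0.153).

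Rpa2, the middle subunit, had 12.2, 12.3 and 14.1 CPM without EVs, 5.33, 6.31 and 6.59 with shCon EVs, 6.91, 6.06 and 6.28 with shCr EVs and 16.7, 16.6 and 15.1 with CrOE EVs. Its CrOE libraries lay above the untreated ones, the reverse of Rpa1. It fell by 2.11 and 2.01 times after shCon and shCr EVs and rose by 1.26 times after CrOE EVs (0.33 ± 0.0921, adjusted p = 0.00585). Rpa3, the small subunit, varied between libraries of a group: shCr EV replicate 1 had 13.0 CPM and replicates 2 and 3 had 7.05 and 6.84. It was lower after shCon EVs (-0.70, adjusted p = 0.0254; no call without untreated replicates 1 or 3 or shCon EV replicates 2 or 3 (adjusted p 0.0623 to 0.0822)), and after CrOE EVs it was at -0.50 with an adjusted p of 0.0519, which became a call in 11 of 19 settings, among them the fits without shCr EV replicates 1, 2 or 3 or CrOE EV replicate 1 (adjusted p 0.00229 to 0.0463). After shCr EVs it was at -0.31 (adjusted p = 0.295), and without replicate 1 of that group it was at -0.67 (adjusted p = 0.00197).

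Fen1, the nuclease that trims the flaps of Okazaki fragments, had 18.9, 21.9 and 22.5 CPM without EVs, 10.4, 11.4 and 11.8 with shCon EVs, 10.4, 11.7 and 9.91 with shCr EVs and 34.9, 35.3 and 35.1 with CrOE EVs. CrOE libraries lay above all others and shCon and shCr libraries, which overlapped, below the untreated ones. Fen1 fell by 1.88 and 1.98 times after shCon and shCr EVs and rose by 1.66 times after CrOE EVs (log2 fold changes -0.91 ± 0.0860, -0.98 ± 0.0857 and 0.73 ± 0.0813; adjusted p = 4.35e-06, 1.87e-06 and 2.87e-06). Of its exon bases, 84.2% lie under exons of Tmem258 or Gm10143 on the other strand, and Tmem258 had log2 fold changes of -0.29, -0.23 and 0.28 after shCon, shCr and CrOE EVs, the same signs as Fen1. Lig1, the ligase that seals the fragments, fell after each kind of EV (-0.85 ± 0.0701, -0.90 ± 0.0699 and -0.94 ± 0.0699).

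Nucleotide supply had the lowest median of the 8 roles after CrOE EVs, -0.92 on the log2 scale. All 5 genes were lower after shCon and after shCr EVs, and 4 of 5 after CrOE EVs. Rrm1, the large subunit of ribonucleotide reductase, which makes deoxyribonucleotides, had 129, 122 and 141 CPM without EVs, 66.2, 66.9 and 65.7 with shCon EVs, 75.7, 74.4 and 74.4 with shCr EVs and 50.8, 50.9 and 48.2 with CrOE EVs. CrOE libraries lay lowest and untreated ones highest, and no groups overlapped. Its level fell by 1.97, 1.74 and 2.61 times after shCon, shCr and CrOE EVs (log2 fold changes -0.98 ± 0.0552, -0.80 ± 0.0548 and -1.38 ± 0.0557; adjusted p = 5e-08, 2.31e-07 and 1.26e-10). Rrm2, the small subunit, whose level limits the enzyme in S phase, had log2 fold changes of -1.80, -1.75 and -0.92.

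Tk1, the thymidine kinase of S phase, had 27.7, 26.3 and 28.3 CPM without EVs, 5.87, 5.84 and 5.33 with shCon EVs, 4.83, 4.90 and 5.25 with shCr EVs and 4.54, 3.67 and 4.21 with CrOE EVs. Every EV-treated library lay far below every untreated one, and the CrOE libraries were the lowest. With a fall of 6.63 times it had the lowest log2 fold change of the 49 genes after CrOE EVs (-2.73 ± 0.0872, adjusted p = 1.48e-11), beside -2.27 ± 0.0855 after shCon and -2.45 ± 0.0858 after shCr EVs (adjusted p = 3.36e-09 and 1.36e-09). Tyms, which makes thymidylate, had log2 fold changes of -1.05, -1.03 and -0.76. Dut, which removes dUTP, had 20.4, 20.8 and 20.3 CPM without EVs, 9.91, 11.1 and 9.37 with shCon EVs, 11.0, 9.96 and 9.28 with shCr EVs and 22.5, 25.4 and 22.8 with CrOE EVs. Its shCon and shCr libraries overlapped at well under the untreated level, and CrOE libraries lay just above it. The rise after CrOE EVs (0.20 ± 0.0817, adjusted p = 0.0402) was lost in 10 of 19 settings, among them the fits without untreated replicates 1, 2 or 3, shCon EV replicate 1, shCr EV replicate 2 or CrOE EV replicate 2 (adjusted p 0.0501 to 0.162), while the falls of -1.02 and -1.03 were lost in none.

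In the E2F and cyclin E group the 2 cyclins parted after CrOE EVs. Cyclin E, encoded by Ccne1 and Ccne2, activates CDK2 at the start of S phase. Ccne1 was lower after each kind of EV (-1.43 ± 0.0930, -1.46 ± 0.0923 and -0.94 ± 0.0892). Ccne2 had 3.04, 2.10 and 3.68 CPM without EVs, 0.680, 1.10 and 0.829 with shCon EVs, 0.811, 0.705 and 1.35 with shCr EVs and 4.31, 4.89 and 4.02 with CrOE EVs. Its shCon and shCr libraries overlapped and lay below the untreated ones, and the CrOE libraries lay above them. Ccne2 fell by 3.36 and 3.02 times after shCon and shCr EVs (adjusted p = 0.000298 and 0.000440). It was called higher after CrOE EVs (0.58 ± 0.230, adjusted p = 0.0360), a call lost without untreated replicates 1 or 2 or CrOE EV replicates 1 or 2 (adjusted p 0.0658 to 0.142), and 17.4% of its exon bases lie under exons of Ints8 on the other strand.

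E2f1, an activating E2F and the member of this role with the highest mean CPM, had 35.8, 39.6 and 37.7 CPM without EVs, 33.7, 30.8 and 34.1 with shCon EVs, 35.1, 35.2 and 32.6 with shCr EVs and 29.2, 26.8 and 28.1 with CrOE EVs. CrOE libraries lay lowest and untreated ones highest, but the groups were close. Against untreated cells it was at -0.20 ± 0.0633, -0.14 ± 0.0630 and -0.43 ± 0.0633 on the log2 scale with shCon, shCr and CrOE EVs (adjusted p = 0.0263, 0.109 and 4.36e-05), and the call after shCon EVs was lost in 4 of 19 settings, among them the fits without untreated replicates 2 or 3 or shCon EV replicate 2 (adjusted p 0.0666 to 0.121). E2f8, a repressing E2F that is itself switched on in S phase, fell by 3.17, 4.89 and 2.11 times. E2f2, another activator, had only 5 to 20 counts per library. It was lower after shCr EVs (-1.64 ± 0.340, adjusted p = 0.00209), was not called after shCon EVs (-0.82 ± 0.315, adjusted p = 0.0578), and its call after CrOE EVs (-0.76 ± 0.304, adjusted p = 0.0380) was lost in 8 of 18 settings, among them the fits without untreated replicates 1, 2 or 3, shCon EV replicate 2 or CrOE EV replicates 1 or 3 (adjusted p 0.0502 to 0.147).

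The subunits of chromatin assembly factor 1, which places histones on new DNA, also parted. Chaf1b, the member of this role with the highest mean CPM, had 21.9, 26.3 and 22.5 CPM without EVs, 17.9, 17.2 and 18.8 with shCon EVs, 17.9, 18.9 and 20.1 with shCr EVs and 37.3, 39.3 and 38.8 with CrOE EVs. CrOE libraries lay above all others, and shCon and shCr libraries overlapped below the untreated ones. It fell by 1.31 and 1.24 times after shCon and shCr EVs and rose by 1.63 times after CrOE EVs (log2 fold changes -0.39 ± 0.0780, -0.31 ± 0.0773 and 0.71 ± 0.0756; adjusted p = 0.00166, 0.00657 and 2.02e-06). The fall after shCr EVs missed the threshold when only those groups were fitted (adjusted p = 0.0501). Chaf1a, its partner, was lower after each kind of EV (-1.24 ± 0.0736, -1.36 ± 0.0736 and -0.60 ± 0.0711), with 52.5% of its exon bases under exons of Ubxn6. Uhrf1, which guides the copying of DNA methylation, was lower as well (-1.57 ± 0.0797, -1.80 ± 0.0801 and -0.94 ± 0.0767). Uhrf1 shares 24.3% of its 31-base stretches with other annotated genes, and Rpa3, Rrm2 and Pole2 share 13.3%, 11.98% and 10.7%, so part of their counts is uncertain in origin. The genes that share most with Uhrf1 and Rpa3, Gm5648 and Gm6195, had group means of at most 0.037 and 0.013 CPM. Those that share most with Rrm2 and Pole2 are not rows of the table.

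The EV groups were then compared with each other. The donor lines differ by label in CRIPTO, shCon is named as the control, and no separate control for overexpression was among the samples used here, so other differences between donor lines cannot be told apart from CRIPTO. Between shCr and shCon EVs few of the 49 genes differed: 2 were higher and 2 lower after shCr EVs, where 8.73% of all genes tested were called, 5.22% higher and 3.51% lower. The count over all genes, 1247, was itself unsteady: it was 688, 632 and 666 without shCon EV replicates 1, 2 and 3, and 641 when only these groups were fitted. The share of the 49 that was called is near that of all genes, and 0 were called at 2-fold or more in either direction (0.399% and 0.357% of all genes, higher and lower). Mcm2 was lower by 1.28 times (-0.35 ± 0.0645, adjusted p = 0.00477), and this call held in each of the 19 settings without a fold threshold. Mcm3 was lower by 1.19 times (-0.26 ± 0.0568, adjusted p = 0.0145), Pold2 higher by 1.19 times (0.25 ± 0.0507, adjusted p = 0.00839) and Rpa1 higher by 1.18 times (0.24 ± 0.0529, adjusted p = 0.0125).

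The calls of Mcm3, Pold2 and Rpa1 were lost when the shCr and shCon libraries were fitted alone (adjusted p = 0.0832, 0.0593 and 0.0608). They were also lost without shCon EV replicate 2 (Mcm3, adjusted p = 0.0809, and Pold2, 0.0520) or replicate 1 (Pold2, 0.0521, and Rpa1, 0.0741). Cdt1 came close to a call (-0.29 ± 0.0829, adjusted p = 0.0501) and was one in 5 of 19 settings, among them DESeq2 (adjusted p = 0.0172) and the fit without shCr EV replicate 2 (adjusted p = 0.0162). The median over the 49 genes was -0.036, and the values ran from -0.82 for E2f2, not called, to 0.39 for Rpa3, not called. For genes without a call, the data do not show that the groups were alike.

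CrOE EVs differed from shCon EVs in most of the 49 genes. Of them, 40 were higher and 4 lower after CrOE EVs, against 72.6% of all genes called, 36.5% higher and 36.1% lower. Against shCr EVs the count was again 40 higher and 4 lower (73.9% of all genes called, 36.9% higher and 37.0% lower). The medians were 0.63 and 0.76 on the log2 scale, with medians of all genes of 0.0075 and 0.0076. Rises of at least 2-fold were called in 17 and 18 of the 49, against 9.31% and 11.0% of all genes, and such falls in 0 and 0 (17.9% and 18.6%). The comparisons share the CrOE libraries. In all, 38 genes were higher after CrOE EVs than after both other kinds. Of these, 16 were still below the untreated level and 9 were not called against it. How many of all genes met these combined conditions was not counted.

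All 10 licensing genes and all 6 of helicase activation were higher after CrOE EVs than after either other kind. Cdc6 had the largest rise, 11.7 times over shCon EVs (3.55 ± 0.192, adjusted p = 2.68e-09) and 15.4 times over shCr EVs (3.94 ± 0.197, adjusted p = 1.02e-09). Against shCon EVs Mcm7 came next with 5.37 times (6.02 against shCr EVs), then Ccne2 with 5.03 and 4.51, Cdt1 with 3.62 and 4.42, and Mcm2 with 3.56 and 4.54. Mcm5, Cdc45 and Mcm10 were higher than after shCon EVs by 2.95, 2.82 and 3.09 times, and Fen1, Rpa2, Pole and Pole2 by 3.13, 2.66, 2.37 and 2.52 times.

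Rpa1, Rrm1, Tk1 and E2f1 were the 4 genes lower after CrOE EVs than after both other kinds. Tk1 had the deepest fall against shCon EVs (-0.46 ± 0.0929, adjusted p = 0.000633), and Rrm1 against shCr EVs (-0.58 ± 0.0553, adjusted p = 6.21e-07). Rrm1 against shCon EVs was at -0.41 ± 0.0555 (adjusted p = 2.12e-05). The Tk1 difference from shCr EVs (-0.27 ± 0.0930, adjusted p = 0.0172) was lost in 3 of 19 settings, among them the fits without shCr EV replicate 3 or CrOE EV replicate 2 (adjusted p 0.0664 to 0.0831). Rfc2, Lig1 and Rpa3 were not called in either comparison. Rfc4 was called higher against shCon EVs (0.47, adjusted p = 0.0340) but not against shCr EVs (0.32, adjusted p = 0.123), and the call was lost without shCon EV replicates 1, 2 or 3 or CrOE EV replicates 1 or 2 (adjusted p 0.0605 to 0.106). Rfc5 was called higher against shCr EVs (0.22, adjusted p = 0.0311) but not against shCon EVs (0.07), a call lost in 8 of 19 settings, among them the fits without shCr EV replicates 1 or 3 or CrOE EV replicates 2 or 3 (adjusted p 0.0711 to 0.0986). E2f2 was likewise called against shCr EVs (0.88, adjusted p = 0.0407) and not against shCon EVs (0.06), a call lost in 9 of 18 settings, among them the fits without untreated replicate 3, shCon EV replicate 2, shCr EV replicates 1 or 3 or CrOE EV replicates 2 or 3 (adjusted p 0.0514 to 0.186). Pold2 was called higher against shCon EVs (0.34, adjusted p = 4.57e-05) and not against shCr EVs (0.09). The rise of E2f8 over shCon EVs (0.59, adjusted p = 0.0185) was lost without shCon EV replicate 1 or CrOE EV replicate 1 (adjusted p 0.0533 to 0.0860).

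**Figure D4:**
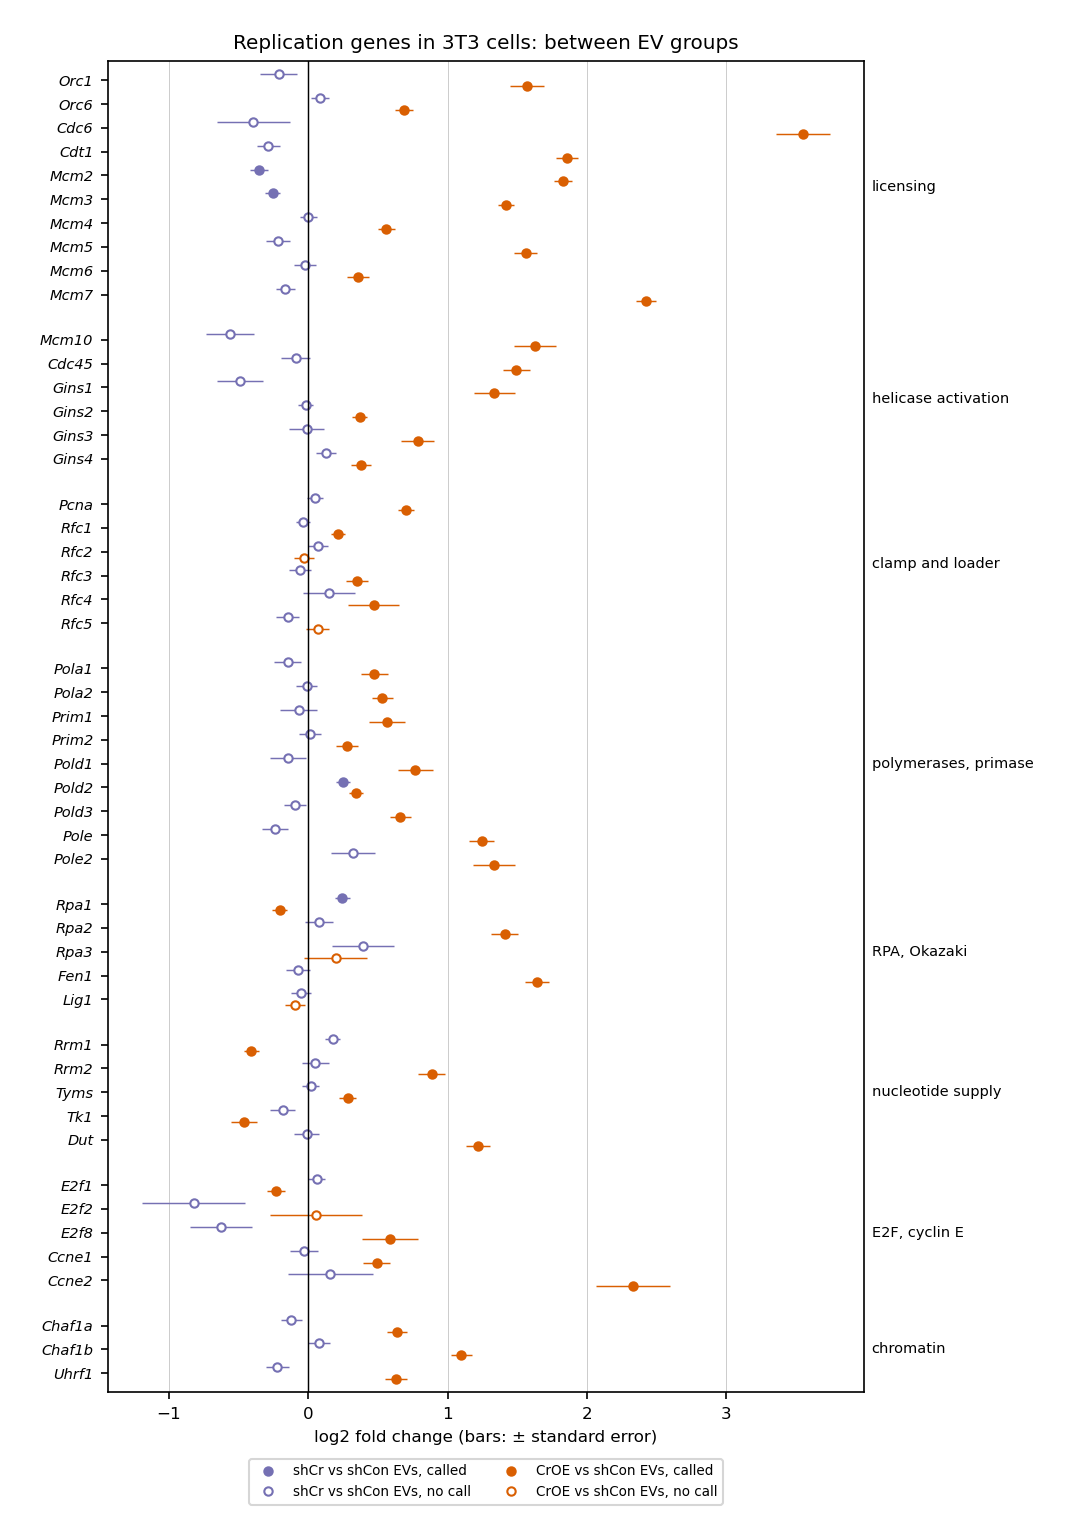
The log2 fold change of each of the 49 replication genes (y axis, by role) after shCr EVs and after CrOE EVs, each against shCon EVs (x axis), with the standard error as a bar; filled points passed an adjusted p of 0.05. Most shCr points lie near 0, with 4 filled, and 40 CrOE points are filled to the right of 0, up to 3.55 for Cdc6.

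Other genes of the same pathway were taken from a list of 72, all of which passed the filter. Most were lower after shCon and shCr EVs, and more were higher than lower after CrOE EVs, unlike the 49 genes above. Against untreated cells, 43 were lower and 4 higher with shCon EVs, 45 lower and 5 higher with shCr EVs, and 19 lower and 39 higher with CrOE EVs. The shares of all genes were 20.2% lower and 18.0% higher, 18.8% and 18.4%, and 37.0% and 36.7%. The medians were -0.42, -0.46 and 0.27 on the log2 scale. Between shCr and shCon EVs 5 were lower and 1 higher, a share near the 8.73% of all genes called. Against shCon EVs and against shCr EVs, 58 were higher and 7 lower after CrOE EVs, where 36.5% and 36.9% of all genes were higher.

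Recql4, a helicase that takes part in origin firing, had 4.72, 5.56 and 4.82 CPM without EVs, 2.65, 3.29 and 3.03 with shCon EVs, 1.55, 1.99 and 2.17 with shCr EVs and 39.4, 36.3 and 42.9 with CrOE EVs. The CrOE libraries lay far above all others. It was 7.84 times the untreated level (2.97 ± 0.112, adjusted p = 6.79e-11) and 13.2 times the level after shCon EVs, the largest rise of the list in both comparisons. It was also the deepest fall between shCr and shCon EVs (-0.64 ± 0.144, adjusted p = 0.0164).

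Other genes of origin firing that were lower after shCon EVs and higher after CrOE EVs than in untreated cells were Dbf4, the activator of the CDC7 kinase (-0.62 and 1.13), Cdc25a, the phosphatase that activates CDK2 (-0.28 and 1.05), Ticrr, also known as treslin (-1.76 and 0.38), and Topbp1, its partner (-0.64 and 0.17). In all, 19 of the 72 had this pattern, as had 13 of the 49, and the share of all genes with it was not counted. Among the others were Mcmbp, Tipin, Chek1, Pole4, Atad5, Dck, Shmt1, Umps, Tfdp1, Nasp, Hells, Cdca7 and Slbp. Cdca7, a partner of the remodeller encoded by Hells, had -0.88 and 1.77.

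Ccna2, cyclin A, which drives CDK2 through S phase, went the other way: it fell by 3.68, 5.16 and 4.65 times after shCon, shCr and CrOE EVs, the deepest fall of the list after CrOE EVs (-2.22 ± 0.0789, adjusted p = 3.98e-11). Clspn, claspin, a mediator of the replication checkpoint, had the deepest falls after shCon and shCr EVs (-2.11 and -2.52). Samhd1, which breaks down deoxyribonucleotides, was the deepest fall between CrOE and shCon EVs (-2.06) and between CrOE and shCr EVs (-2.16), from 170.0 ± 5.32 CPM (SD, n = 3) without EVs to 41.2 ± 0.614 with CrOE EVs. Largest rises against untreated cells were those of Rb1, the RB protein that holds E2F in check, after shCon EVs (0.52 ± 0.0829, adjusted p = 0.000329) and of Rad9a, part of the checkpoint clamp, after shCr EVs (0.46 ± 0.0945, adjusted p = 0.00183). Rb1 was lower than untreated after CrOE EVs (-0.23, adjusted p = 0.0235). Rnaseh2c, a subunit of RNase H2, was the one gene of the list higher after shCr than after shCon EVs (0.33). The limit from exons on the other strand holds here too. Such exons cover 24.8% of the exon bases of Rnaseh2c, 14.9% of Rb1, 12.5% of Ccna2, 9.7% of Recql4 and 9.5% of Rad9a. For Clspn and Samhd1 the share was 0.0%.

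**Figure D5:**
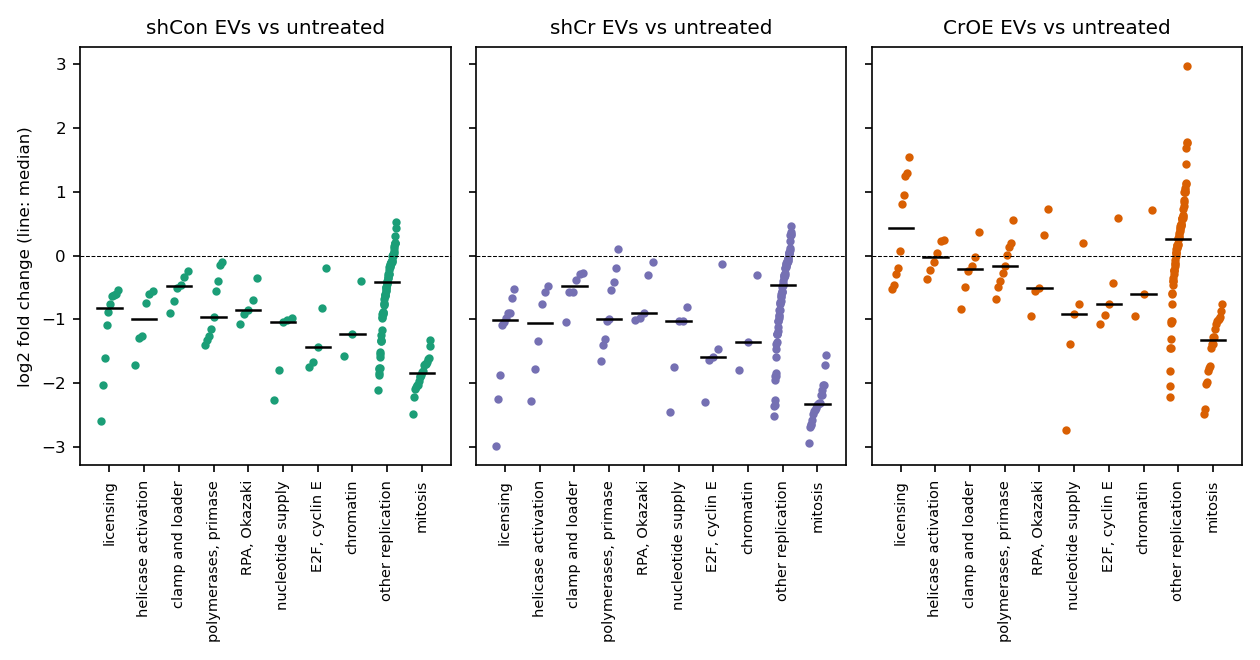
The log2 fold change against untreated cells (y axis) of each gene (points) of the 8 roles, of the 72 other replication genes and of 20 mitosis genes (x axis), with the median as a line, for each kind of EV (panels). Mitosis medians are -1.85, -2.33 and -1.33, below those of every replication role, and the licensing median changes from -0.82 after shCon EVs to 0.44 after CrOE EVs.

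Genes of mitosis were lower after every kind of EV, CrOE included. All 20 genes of a mitosis list were called lower after shCon, shCr and CrOE EVs, against 20.2%, 18.8% and 37.0% of all genes. The medians of the 20 were -1.85, -2.33 and -1.33. Their summed level was 662 ± 30.1 CPM (SD, n = 3) without EVs, 192 ± 10.203 with shCon EVs, 137 ± 2.92 with shCr EVs and 252 ± 19.8 with CrOE EVs. Nuf2, a kinetochore protein, had the deepest falls after shCon and shCr EVs (-2.49 and -2.93), and Ccnb2, a mitotic cyclin, after CrOE EVs (-2.48). Of the 20, 13 were lower after shCr than after shCon EVs, against 3.51% of all genes. CrOE EVs left 13 above and 1, Ccnb2, below the level after shCon EVs, against 36.5% and 36.1% of all genes. Against untreated cells, CrOE libraries had 5 licensing genes called higher and 4 called lower, and all 20 mitosis genes called lower.

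Of 5 genes for cyclins and kinases of G1, 4 were lower after each kind of EV. Ccnd1, cyclin D1, fell by 2.85, 1.78 and 20.5 times after shCon, shCr and CrOE EVs (adjusted p = 5.59e-09, 4.59e-07 and 8.42e-14), from 281, 278 and 305 CPM without EVs to 13.1, 15.4 and 13.6 with CrOE EVs. Cdk4, its kinase, was slightly higher after CrOE EVs (0.15, adjusted p = 0.0207). Of 7 CDK inhibitor genes, 2 were higher and 1 lower with shCon EVs, 4 and 1 with shCr EVs, and 0 and 7 with CrOE EVs. Among all genes 38.1%, 37.3% and 73.7% were called in these comparisons, so with lists this short the counts of the G1 and inhibitor genes are given as a description. The largest rise was that of Cdkn2b after shCon EVs (0.30) and of Cdkn2c after shCr EVs (0.60). Cdkn2c also had the deepest fall after CrOE EVs (-2.18), and Cdkn2d after shCon and shCr EVs (-0.79 and -0.54).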

How the data were processed

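Poly(A) RNA of 12 libraries was sequenced from directional libraries, per the labels' protocols. A single table, deposited by the authors, gave estimated counts with gene symbols as rows. The submitters' processing notes name featureCounts and mm39, but 39.8% of the values were not whole numbers, so they were taken as estimated counts and rounded. How strand was used in counting, and the annotation, are not given in the sources used here. Totals per library were 25959912 to 37773847, which sets the precision of low genes. In 27 rows the symbol was a date. None of them is a gene of the lists used here.

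Genes were filtered with filterByExpr (14279 kept) and scaled by TMM. All 12 libraries were fitted with a mean per group by edgeR 4.0.16 (R 4.3.3), and the quasi-likelihood test was used for the 6 pairs of groups, with 8 residual degrees of freedom. Benjamini-Hochberg adjustment covered all genes of a comparison, and standard errors came from the F statistic. The steps were tested on simulated counts. Lengths, overlaps on the other strand and shared 31-base stretches came from GENCODE M21 (GRCm38), and promoter windows from RefSeq (GRCm38.p6). Neither is the build named in the notes, and genes were joined to them by symbol.

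The genes and lists were chosen with earlier results of these data known. Values in every library were given for the gene with the highest mean CPM of each role, the largest called rise and fall of each comparison, and every gene called higher than untreated after any EV. Other genes are given by fold change, range or count. In the list of other replication genes and the context lists, the largest called rise and fall were named, as were the other replication genes called lower after shCon EVs and higher after CrOE EVs, except 1 that enters the counts and is not named. DESeq2 1.42.0, other scalings, other filters, a model of each pair, a replicate block, a 2-fold threshold and fits without each library in turn were the alternatives.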

Additional observations from a re-analysis of the deposited data

How the results depend on the processing

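No fold change of the 49 genes that was called changed sign under any alternative run. Of their 294 tests, 221 were calls, and 203 of these were lost in none of the settings without a fold threshold in which they were tested, while 18 were lost in at least 1. There were 19 such settings, and E2f2, too low for the filter of at least 10 counts in every library, was tested in 18. The largest loss of calls came from a 2-fold threshold. It left 21 calls, all 21 lower, after shCon EVs and 24, all 24 lower, after shCr EVs against untreated cells, and 6 after CrOE EVs (3 higher, 3 lower). Between EV groups it left 0 for shCr against shCon EVs (0 higher, 0 lower), 17 for CrOE against shCon EVs (17 higher, 0 lower) and 18 for CrOE against shCr EVs (18 higher, 0 lower).

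For shCr against shCon EVs, with 2 higher and 2 lower, DESeq2 kept the 2 higher and called 4 lower. A model of only those groups made 1 call (0 higher, 1 lower). With 1 library left out, this comparison gave 2 to 6 calls (0 to 3 higher, 1 to 4 lower): 0 were higher without shCon EV replicate 1, 3 higher without untreated replicate 2, 1 lower and 2 in all without shCon EV replicate 2, and 4 lower and 6 in all without shCr EV replicate 2. The same fits gave 44 to 47 lower after shCon EVs, 43 to 46 lower after shCr EVs, and 34 to 42 calls after CrOE EVs (11 to 15 higher, 23 to 27 lower) against untreated cells. CrOE against shCon EVs gave 42 to 44 calls (38 to 40 higher, 4 lower) and CrOE against shCr EVs 41 to 44 (38 to 40 higher, 3 to 5 lower). The 12 genes lower after shCon and shCr EVs and higher after CrOE EVs numbered 9 to 13 in these fits.

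Same-numbered libraries mostly did not deviate together: their correlations ran from -0.20 to 0.32 over 18 pairs, 5 of them over 0.1. Of 12 libraries, 4 correlated best with their own number. These values cannot show whether the samples were paired by design. The mitochondrial share of counts was 0.495% to 1.64% in untreated, 1.35% to 1.64% in shCon, 0.622% to 1.70% in shCr and 0.693% to 1.44% in CrOE libraries. Its part in the deviations was not tested. With a replicate block, 291 of the 294 tests kept their side of the threshold, 3 became calls (Cdt1 for shCr against shCon EVs, Rfc4 for CrOE against shCr EVs and Rpa3 for CrOE EVs against untreated cells) and 0 were lost, so the calls numbered 47, 44, 39, 5, 44 and 45 in the order of comparisons above. Depth limits E2f2, at 5 to 20 counts per library, and Cdc6 after shCon and shCr EVs.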
